A study of Mus musculus with 12 samples.

Results

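The genes described here are 34 innate sensors, adaptors and inflammasome genes, taken by symbol from count tables of total mouse colon that held 30263 genes. All 34 were in the tables, and all 34 were among the 17195 genes with enough reads to be tested. The colons were from C57BL/6 animals, either wild type by label (WT) or S1PR4 KO by label. S1PR4 is a cell-surface receptor of lymphoid and myeloid cells that binds the lipid sphingosine 1-phosphate, and WT and KO below stand for the libraries so labelled. Every mouse, WT and KO alike, had been given the carcinogen azoxymethane (AOM, 10 mg/kg) and 0.5% dextran sulfate sodium (DSS), a detergent-like sugar polymer that damages the lining of the gut. The last DSS course ran from day 47 to day 52 and colons were taken at day 84, with 3 libraries in each group. No untreated colon enters the comparison, the animals' age and the way the knockout was made are not given in the sources used here, and the labels do not say whether each library was a separate animal. P-values therefore measure only the spread between these libraries.

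Innate sensors recognise parts of microbes or of damaged cells. Toll-like receptors sit on the cell surface, where they bind lipids, lipoproteins and flagellin, or in endosomes, where they bind nucleic acids, and they signal through the adaptors MyD88 or TRIF to NF-kB and interferon genes. NOD and NLR proteins, AIM2 and STING work inside the cell, and inflammasome sensors recruit the adaptor ASC and caspase-1, which matures interleukins and cuts the pore protein gasdermin D. In the colon these genes are shared between the epithelium, which meets bacteria at its surface, and macrophages, dendritic cells, neutrophils and B cells beneath it.

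The colon libraries held 7304082 to 8652561 counts. The colon markers Cdx2, Slc26a3, Car1, Muc2 and Krt20 were counted in all 6 libraries, and levels below are in CPM (counts relative to the library's total, scaled by TMM). The gut transcription factor Cdx2 was lowest in WT replicate 1 (44.9 CPM, against 115 to 162 CPM elsewhere). S1pr4 had 25 to 61 counts in the libraries labelled WT and 118 to 162 in those labelled KO, so the targeted gene was counted more in KO, against the label. KO and WT differed by 1.78 ± 0.34 (SE, log2; adjusted p = 0.829 in edgeR and 0.0059 in DESeq2). Where in S1pr4 these reads lie cannot be read from a count table, and every direction below rests on the labels. Xist, which marks female cells, stood at 515 to 591 CPM in WT replicate 1, KO replicate 2 and KO replicate 3 (Xist-high libraries below). In WT replicates 2 and 3 and KO replicate 1 Xist reached at most 6.75 CPM while Ddx3y, a gene of the Y chromosome, ranged from 63.3 to 81.1 CPM (Y-linked libraries below). WT and KO are therefore unevenly spread over the sexes.

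Promoters are shown for 4 of the 34 genes: Nlrp3, Clec7a and Tlr2, whose mean was higher in KO with overlapping groups, and Mavs, whose mean was lower without overlap. The sequences are RefSeq's (GRCm38.p6), read 5′ to 3′ on the gene's strand, from the 250 bases before the start site without any base that a GENCODE exon covers. Capitals mark matches to the NF-kB consensus on either strand, which for Tlr2 are a pair that overlap.
Nlrp3 (chr11:59541319-59541567, plus strand): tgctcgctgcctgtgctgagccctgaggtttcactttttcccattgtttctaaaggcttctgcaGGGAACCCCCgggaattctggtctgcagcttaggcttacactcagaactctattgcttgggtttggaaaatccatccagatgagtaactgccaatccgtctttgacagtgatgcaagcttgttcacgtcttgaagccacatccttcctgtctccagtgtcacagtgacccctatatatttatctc
Clec7a (chr6:129472780-129473029, minus strand): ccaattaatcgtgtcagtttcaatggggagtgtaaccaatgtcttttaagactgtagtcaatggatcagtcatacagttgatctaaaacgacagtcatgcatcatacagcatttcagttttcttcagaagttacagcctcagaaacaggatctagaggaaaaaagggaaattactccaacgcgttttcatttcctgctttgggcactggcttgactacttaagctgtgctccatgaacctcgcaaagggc
Tlr2 (chr3:83841768-83841858, minus strand): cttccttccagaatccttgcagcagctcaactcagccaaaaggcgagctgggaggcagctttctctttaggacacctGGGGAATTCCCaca
Mavs (chr2:131233813-131234062, plus strand): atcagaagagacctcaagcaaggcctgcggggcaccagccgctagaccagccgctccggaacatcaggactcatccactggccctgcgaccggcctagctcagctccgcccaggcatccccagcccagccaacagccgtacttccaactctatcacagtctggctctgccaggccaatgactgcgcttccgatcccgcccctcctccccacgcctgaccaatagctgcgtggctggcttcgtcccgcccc
The Nlrp3 match starts 186 bases before the start site and the Tlr2 pair 173 and 172 bases before it. The Clec7a and Mavs stretches held no match. RefSeq gives Nlrp3 another start site, whose promoter (chr11:59542436-59542685) held no match. A gene with several RefSeq promoters is counted below where any 1 of them holds the motif, on the whole 250 bases. RefSeq held a promoter for 28 of the 34 genes, and 5 of these 28 (17.9%) matched the NF-kB consensus in the 250 bases, namely Nlrp3, Tlr2, Tlr3, Casp4 and Irak1, against 8.23% of 27025 genes. The PU.1 core GAGGAAGT stood in the promoters of Tlr1, Pycard and Aim2 (10.7% of the 28, against 2.79% of all genes). The interferon response element (GAAA, any 2 bases, GAAA) stood in those of Myd88 and Tlr6 (7.14% against 3.46%), and the AP-1 site TGANTCA in those of Nlrp6 and Tlr9 (7.14% against 7.82%), each read on both strands. The TATA box TATAAA, read on the gene's strand alone, stood in those of Myd88 and Tlr8 (7.14% against 8.94%). A ratio of observed to expected CG pairs above 0.6, in any 1 promoter of a gene, was found for 6 of the 28 (21.4% against 36.1%), Mavs, Nod1, Traf6, Irak1, Irak3 and Irak4. A match is a description of letters and not evidence of binding.

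Levels per kilobase of exon spanned from 0.863 ± 0.42 (Nlrp3) to 59.6 ± 6.05 CPM per kb (Casp1; SD, n = 3) in WT colon. The genes at the top were the inflammasome effectors Casp1 and Gsdmd, with 54.0 ± 1.48 CPM per kb for Gsdmd, and the epithelial sensor Nlrp6 with 52.2 ± 11.1. These 3 lay within their spread of each other. Cd14 and Mavs followed at 39.2 ± 2.42 and 38.9 ± 1.37 CPM per kb, also within their spread. The lowest were Nlrp3, Tlr8 at 0.922 ± 0.539, Tlr6 at 1.32 ± 0.214, Card9 at 1.59 ± 0.138 and Tlr7 at 1.90 ± 0.795 CPM per kb (SD, n = 3). Tlr13 had a mean of 2.42 CPM per kb, and the shared signalling genes Myd88, Irak1 and Ticam1 had means of 24.8 to 31.8. Casp1, Gsdmd, Nlrp6 and Cd14 averaged more than 0.3 counts per exon base, a cut set by choice, with means of 0.343 to 0.45. The highest value of any gene was 0.919 to 0.973 counts per exon base over the libraries. The folds of these genes, and their levels in the ranking above, may therefore be compressed. Mavs averaged 0.28, just under the cut, and reached 0.332 in its highest library.

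**Figure D1:**
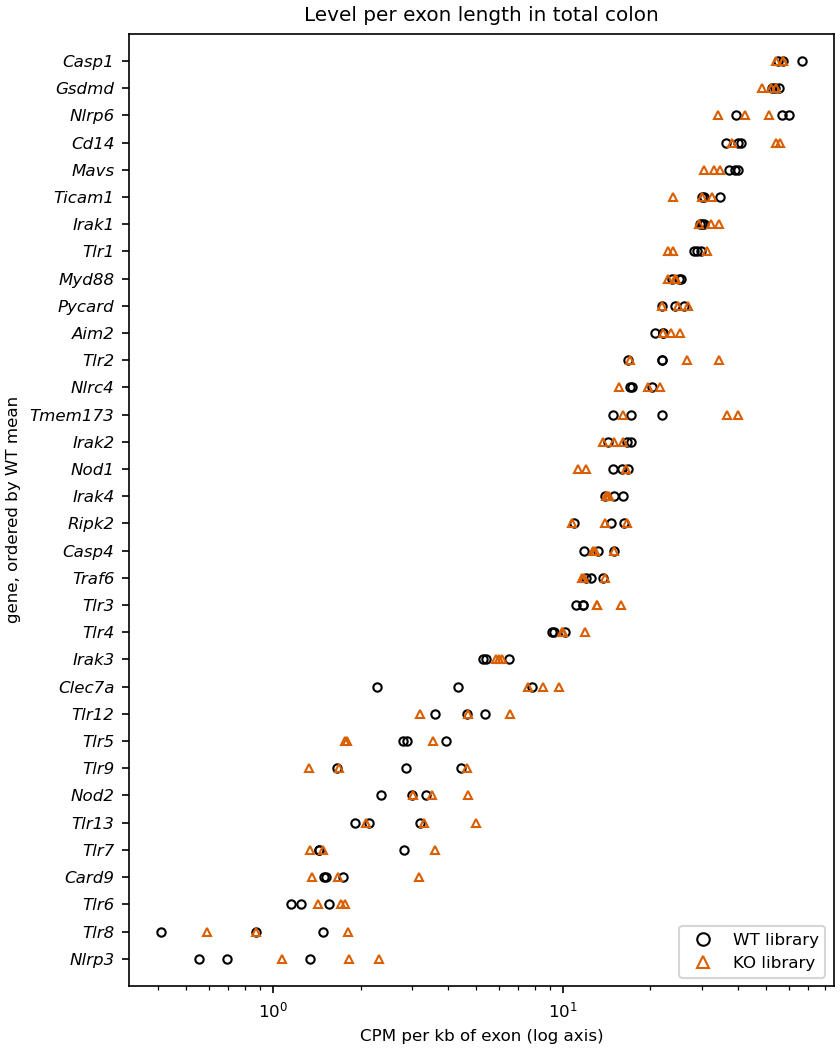
Level of each gene in CPM per kb of exon (log axis) in the 3 WT (circles) and 3 KO (triangles) colon libraries, ordered by the WT mean. Casp1, Gsdmd and Nlrp6 are at the top, Nlrp3 and Tlr8 at the bottom, and the WT and KO symbols are mixed for most genes.

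The comparison set the libraries labelled KO against those labelled WT. With p-values adjusted over all tested genes, edgeR's quasi-likelihood test called 0 of the 34 (adjusted p 0.829 to 0.991) and 0 of all 17195 (0%). DESeq2 called 0 of the 34 (0.105% of all genes, 18 in number). Run with quality weights, so that libraries did not count equally, limma-voom called 0 (0% of all genes). At an unadjusted p under 0.05, edgeR had 2 of the 34, Tlr3 and Mavs (5.06% of all genes), DESeq2 3 (5.35%) and limma-voom 13 (26.5%). Fitted means were higher in KO for 20 genes (58.8%) and lower for 14, where 49.0% of all genes were higher. The median log2 difference was 0.06 over the 34 genes against -0.005 over all genes. Differences over 0.5 on the log2 scale, in either direction, were found for 4 of the 34 genes (Nlrp3, Clec7a, Tmem173 and Tlr13) and for 13.3% of all genes. Groups did not overlap for Tlr3, higher in KO (4.55% of all genes did the same), and for Mavs, lower in KO (5.04% of all genes). For differences over 0.5 (11.8% of the 34) and for groups without overlap, the shares are near those of all genes. At an unadjusted p under 0.05 the shares in DESeq2 and limma-voom were larger than those of all genes, and no test was made over the list.

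**Figure D2:**
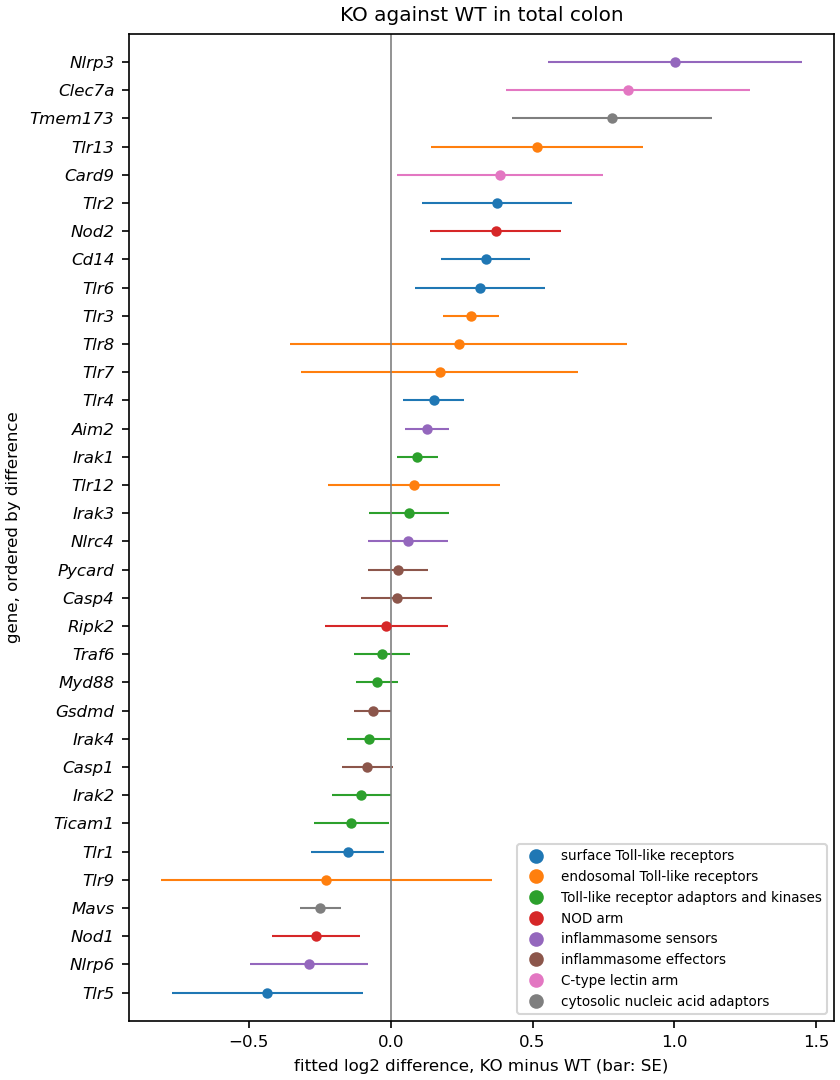
Fitted log2 difference, KO minus WT, with its SE for each of the 34 genes, ordered by size and coloured by role. Nlrp3 is at the top with 1.00 and Tlr5 at the bottom with -0.43, and the adaptors and inflammasome effectors lie close to 0.

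Among surface receptors, Tlr2, Cd14, Tlr4 and Tlr6 had a higher mean in KO, and Tlr1 and Tlr5 a lower one. Tlr2, the receptor for bacterial lipoproteins (chromosome 3, 83836272 to 83841767, GRCm38), stood at 66.0, 65.8 and 50.4 CPM in WT replicates 1, 2 and 3 and at 51.2, 80.5 and 104 CPM in KO. KO replicates 2 and 3 were above every WT library and KO replicate 1 was among the WT values. On the log2 scale Tlr2 differed by 0.37 ± 0.27 (SE), with 0.47 among Xist-high libraries alone and -0.17 among Y-linked ones. Cd14, the co-receptor that hands lipopolysaccharide to TLR4, was likewise highest in KO replicates 2 and 3. It stood at 71.1, 69.3 and 63.1 CPM in WT and 66.3, 96.6 and 94.0 CPM in KO. Its log2 difference was 0.33 ± 0.16 (SE), on a gene whose count per base may compress folds. Tlr4, the lipopolysaccharide receptor, held 51.0 to 56.2 CPM in WT and 54.9 to 66.2 CPM in KO (0.15 ± 0.11, SE, log2), so the groups overlapped.

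Tlr5, the flagellin receptor (chromosome 1, 182954788 to 182976044), ran the other way in the same libraries. It stood at 18.9, 13.4 and 13.9 CPM in WT and 17.1, 8.60 and 8.44 CPM in KO, with KO replicates 2 and 3 below every WT library, and its log2 difference was the lowest of the 34 genes at -0.43 ± 0.34 (SE). Tlr1 and Tlr6 pair with TLR2 to read lipoproteins. Tlr1 held 94.6, 97.1 and 99.7 CPM in WT and 105, 79.9 and 77.1 CPM in KO (-0.15 ± 0.13, SE, log2), so KO replicate 1 was above and KO replicates 2 and 3 below every WT library. Tlr6 held 4.28 to 5.80 CPM in WT and 5.31 to 6.61 CPM in KO (0.31 ± 0.23, SE, log2), and the groups overlapped. Tlr1 and Tlr6 are neighbours on chromosome 5 with stretches in common: 15.4% of the 50-base words of Tlr1 and 12.3% of those of Tlr6 also stand in other genes, most often in each other, so their counts are uncertain to that extent. Cd14 was also the only one of the 34 genes among the 357 listed for CD8+ T cells sorted from PyMT mammary tumors when 1 tumor had reached 1.5 cm. Its counts there were 161, 516 and 99 in WT and 63, 61 and 89 in KO. Those tables sum to 17407 to 183504 counts over listed genes, which is not a depth, so the 2 groups were not compared.

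Among endosomal receptors, Tlr3 was the only one whose groups did not overlap, and Tlr7, Tlr8 and Tlr9 each had 1 high library in either group. Tlr3, which binds double-stranded RNA (chromosome 8, 45395665 to 45411080), stood at 57.8, 60.9 and 60.8 CPM in WT and at 68.0, 68.0 and 82.4 CPM in KO. All 3 KO libraries were above all 3 WT libraries. The mean of Tlr3 was 59.8 CPM (SD 1.71) for WT against 72.8 CPM (SD 8.29) for KO, with 3 libraries each. The log2 difference was 0.28 ± 0.10 (SE; edgeR adjusted p = 0.829; DESeq2 adjusted p = 0.846). An exon of Gm45542 overlaps it on the other strand, and 5.3% of its 50-base words stand there, so reads of that gene cannot be told apart. Among Xist-high libraries alone the difference was 0.37, and among Y-linked ones 0.16.

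Tlr7 and Tlr8, X-linked receptors for single-stranded RNA, Tlr9, the receptor for unmethylated CpG DNA, and Tlr13, the X-linked receptor for bacterial ribosomal RNA, had their highest value in KO replicate 1. Tlr7 (X chromosome, 167304929 to 167330558) stood at 11.5, 5.88 and 5.88 CPM in WT and 14.7, 6.08 and 5.45 CPM in KO. Tlr9 (chromosome 9, 106222598 to 106226883) stood at 15.5, 10.0 and 5.75 CPM in WT and 16.2, 4.63 and 5.86 CPM in KO. WT replicate 1 was the library next to KO replicate 1 for Tlr7, Tlr8 and Tlr9, so each group held 1 high and 2 lower libraries. The log2 differences were 0.17 ± 0.49 for Tlr7, 0.24 ± 0.59 for Tlr8, -0.23 ± 0.58 for Tlr9 and 0.52 ± 0.37 for Tlr13 (SE), all within the spread between replicates. Tlr12, which binds profilin of parasites, held 11.5 to 17.1 CPM in WT and 10.2 to 20.8 CPM in KO.

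The same 2 libraries were highest in the summed markers of macrophages, dendritic cells, T cells and B cells, though not of neutrophils. Single markers did not all follow their sum. Mertk, of the macrophage list, had 90.8 CPM in WT replicate 1, against 106 and 111 CPM in WT replicates 2 and 3. For Flt3, Xcr1, Clec9a, Cd209a, Cd3g, Cd5 and Cd79b the 2 highest libraries were KO replicate 1 and WT replicate 2 or 3. For Fcgr1 they were KO replicates 1 and 2. The 10 macrophage markers summed to 618 CPM in WT replicate 1 and 711 CPM in KO replicate 1, with 421 to 510 CPM in the other 4 libraries. The 7 dendritic cell markers summed to 69.1 and 98.0 CPM in those libraries and to 49.6 to 59.5 CPM elsewhere. The 8 T cell markers summed to 85.5 and 117 CPM in those libraries against 44.3 to 63.9 CPM. Of these sums in WT replicate 1 and KO replicate 1, Itgax alone held 40.3 and 46.2 CPM for dendritic cells. Cd4 alone held 36.2 and 61 CPM for T cells. The 8 B cell markers summed to 306 and 323 CPM in WT replicate 1 and KO replicate 1. They summed to 257 and 140 CPM in WT replicate 2 and KO replicate 2, and to 57.9 and 59.0 CPM in WT replicate 3 and KO replicate 3. The 4 pan-leukocyte markers ranged from 181 to 335 CPM in WT and from 215 to 370 CPM in KO. No marker of these lists was at 0 in any library. In whole tissue, fewer cells of a type and less RNA per cell cannot be told apart, and the part of cell content in these values was not tested.

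**Figure D3:**
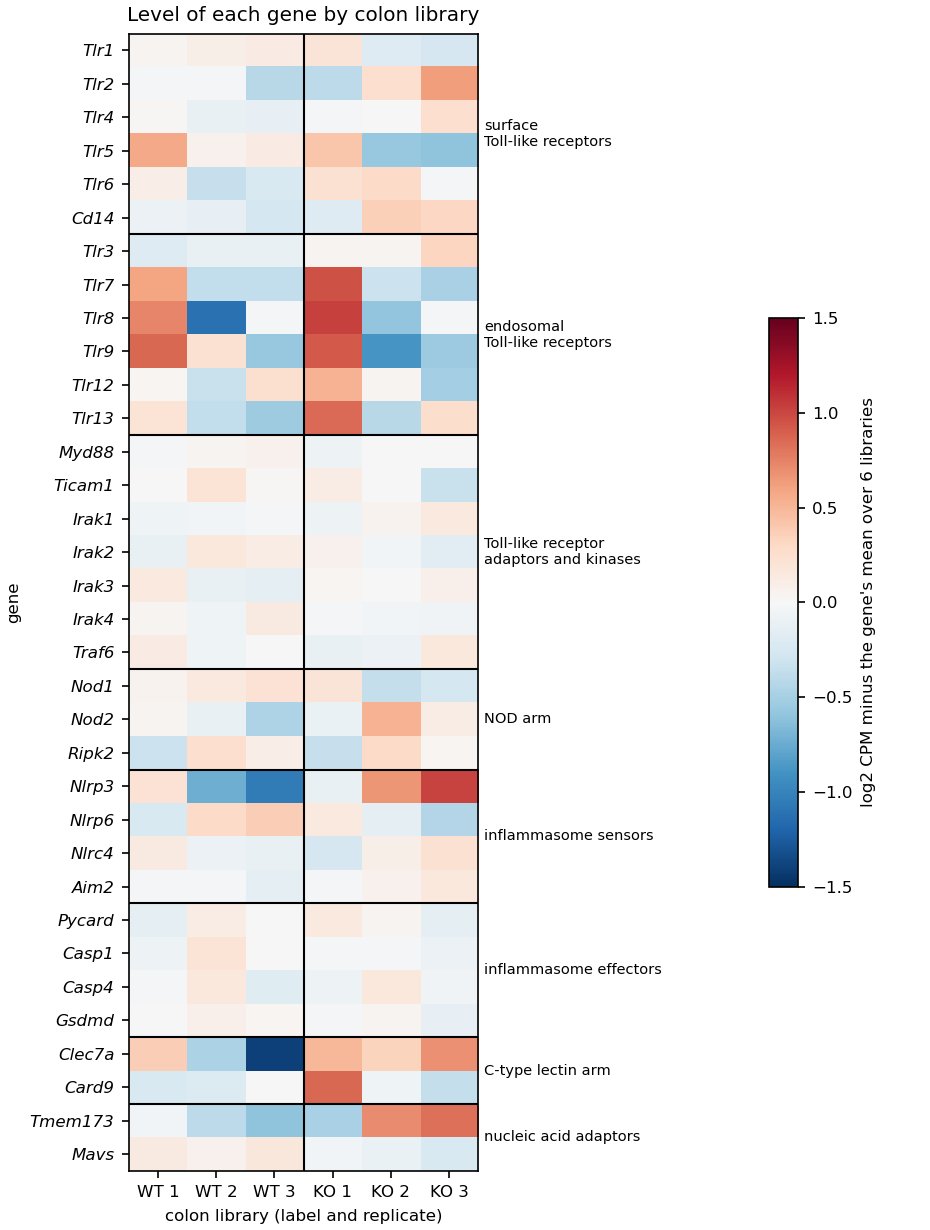
Log2 CPM of each gene minus its mean over the 6 colon libraries, with genes ordered by role and WT left of the vertical line. Tlr7, Tlr8 and Tlr9 are red in WT replicate 1 and KO replicate 1, Tlr2, Cd14, Nlrp3 and Tmem173 in KO replicates 2 and 3, and the adaptors, kinases and inflammasome effectors are near white.

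The adaptors and kinases below the Toll-like receptors lay close to 0. The 7 genes of this group had log2 differences from -0.14 to 0.09, with 2 higher and 5 lower in KO and a median of -0.05. Their summed level was 561 to 572 CPM in WT and 553 to 560 CPM in KO. Myd88, the adaptor shared by most Toll-like receptors (chromosome 9, 119335934 to 119341411), stood at 61.2, 64.7 and 65.5 CPM in WT and 59.4, 63.1 and 62.5 CPM in KO, a log2 difference of -0.05 ± 0.07 (SE). Ticam1, which encodes the TRIF adaptor of TLR3 and TLR4, stood at 90.1, 104 and 91.2 CPM in WT and 97.7, 90.1 and 71.4 CPM in KO (-0.14 ± 0.13, SE, log2). The kinases Irak1, Irak2 and Irak4 differed by 0.09 ± 0.07, -0.10 ± 0.10 and -0.08 ± 0.08, the inhibitory family member Irak3 by 0.06 ± 0.14, and the ubiquitin ligase Traf6 by -0.03 ± 0.10 (SE, log2). Each of these 7 had overlapping groups. Exons of other genes on the opposite strand overlap Myd88, Irak2, Irak3 and Irak4, and 2.56% to 7.42% of the 50-base words of these 4 genes stand in other genes.

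Of the NOD arm, Nod1 was lower and Nod2 higher in mean in KO, and the difference of their kinase Ripk2 was near 0. Nod1, an epithelial sensor of a peptidoglycan fragment (chromosome 6, 54923949 to 54972612), stood at 75.7, 80.9 and 84.8 CPM in WT and 83.4, 56.9 and 60.9 CPM in KO. KO replicates 2 and 3 were below every WT library and KO replicate 1 was not (-0.26 ± 0.16, SE, log2). Nod2, which senses muramyl dipeptide (chromosome 8, 88647315 to 88688474), stood at 16.8, 15.1 and 11.8 CPM in WT and 15.2, 23.5 and 17.7 CPM in KO (0.37 ± 0.23, SE, log2), again with KO replicates 2 and 3 above every WT library. Ripk2 held 30.6 to 45.7 CPM in WT and 30.3 to 46.8 CPM in KO, and its difference of -0.015 ± 0.22 (SE, log2) was well within the spread.

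The inflammasome sensors did not share a direction: 3 were higher and 1 lower in mean in KO. Nlrp3, which answers to membrane damage and ion loss in myeloid cells (chromosome 11, 59541568 to 59566956), had the highest difference of the 34 genes. It had 46, 21 and 18 counts in WT and 34, 56 and 69 in KO, or 5.44, 2.81 and 2.25 CPM in WT and 4.34, 7.41 and 9.40 CPM in KO. KO replicates 2 and 3 were above every WT library, and KO replicate 1 was below WT replicate 1. The mean of Nlrp3 was 3.50 CPM (SD 1.70) for WT against 7.05 CPM (SD 2.55) for KO, with 3 libraries each. The log2 difference was 1.00 ± 0.45 (SE; edgeR adjusted p = 0.829; DESeq2 adjusted p = 0.956). The difference was 0.61 within the Xist-high libraries, 0.76 within the Y-linked ones and 0.70 ± 0.25 (SE) with Xist status as a covariate. Nlrp6, an epithelial sensor of the gut, was the member with the most counts, at 201, 288 and 306 CPM in WT and 261, 216 and 174 CPM in KO (-0.29 ± 0.21, SE, log2). All 3 Xist-high libraries were below all 3 Y-linked libraries for Nlrp6, and the difference with that status as a covariate was -0.12 ± 0.11 (SE). Nlrc4, the sensor of flagellin and secretion needles, held 81.9 to 97.1 CPM in WT and 74.7 to 104 CPM in KO, and Aim2, the sensor of cytosolic DNA, 72.4 to 77.6 and 77.5 to 88.6 CPM. The groups overlapped for both (0.06 ± 0.14 and 0.13 ± 0.08, SE, log2).

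The 4 effectors below the sensors had the differences closest to 0 of all roles, with a median size of 0.045 on the log2 scale, and their groups overlapped. Casp1, the caspase that matures interleukin-1 beta and interleukin-18 (chromosome 9, 5298517 to 5307265), stood at 82.3, 99.5 and 86.0 CPM in WT and 85.7, 85.8 and 81.4 CPM in KO. Gsdmd, which forms the pore of pyroptosis, stood at 125, 132 and 128 CPM in WT and 124, 129 and 115 CPM in KO. The log2 differences were -0.08 ± 0.09 for Casp1, -0.06 ± 0.07 for Gsdmd, 0.02 ± 0.12 for Casp4, the caspase that binds lipopolysaccharide in the cytosol, and 0.03 ± 0.11 for Pycard, which encodes ASC (SE). A gene on the opposite strand, Gm45205, overlaps Pycard, and 11.7% of the 50-base words of Pycard stand in other genes. The counts per base of Casp1 and Gsdmd may compress their folds.

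In the C-type lectin arm, Clec7a, the dectin-1 receptor for fungal glucan (chromosome 6, 129461591 to 129472779, a polymorphic pseudogene in GENCODE vM21), stood at 20.6, 11.4 and 6.00 CPM in WT and 22.5, 20 and 25.5 CPM in KO. The 3 KO libraries lay close together and WT replicate 1 lay among them, while WT replicates 2 and 3 were below. The mean of Clec7a was 12.7 CPM (SD 7.37) for WT against 22.6 CPM (SD 2.75) for KO, with 3 libraries each. The log2 difference was 0.84 ± 0.43 (SE; edgeR adjusted p = 0.829). Among Xist-high libraries alone it was 0.13, and among Y-linked ones 1.43. Card9, the adaptor that carries this signal to NF-kB, had 23 to 57 counts a library and stood at 3.43, 3.48 and 4 CPM in WT and 7.28, 3.84 and 3.13 CPM in KO. Its difference of 0.39 ± 0.36 (SE, log2) rested on KO replicate 1 and was -0.06 without it. Gm13562 overlaps Card9 on the opposite strand.

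The cytosolic nucleic acid adaptors went in opposite directions. Tmem173, which encodes STING, the adaptor of cytosolic DNA sensing (chromosome 18, 35733679 to 35740554), stood at 60.1, 47.1 and 40.6 CPM in WT and 44.0, 101 and 110 CPM in KO. KO replicates 2 and 3 were above every other library and KO replicate 1 lay among the WT values, so the SD was 35.5 CPM around a mean of 84.7 CPM in KO (n = 3), against 9.91 around 49.3 CPM in WT (n = 3). The log2 difference was 0.78 ± 0.35 (SE; edgeR adjusted p = 0.829; DESeq2 adjusted p = 0.822), with 0.80 among Xist-high libraries alone, 0.01 among Y-linked ones and 0.41 ± 0.21 (SE) with Xist status as a covariate. Mavs, the mitochondrial adaptor of the RNA sensors RIG-I and MDA5 (chromosome 2, 131234063 to 131248025), stood at 131, 125 and 134 CPM in WT and 116, 111 and 102 CPM in KO. All 3 KO libraries were below all 3 WT libraries. The mean of Mavs was 130 CPM (SD 4.80) for WT against 110 CPM (SD 7.24) for KO, with 3 libraries each. The log2 difference was -0.25 ± 0.07 (SE; edgeR adjusted p = 0.829; DESeq2 adjusted p = 0.708), with the smallest unadjusted p of the 34 genes in edgeR. It was -0.31 among Xist-high libraries alone, -0.16 among Y-linked ones, and from -0.30 to -0.19 with any 1 library left out.

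**Figure D4:**
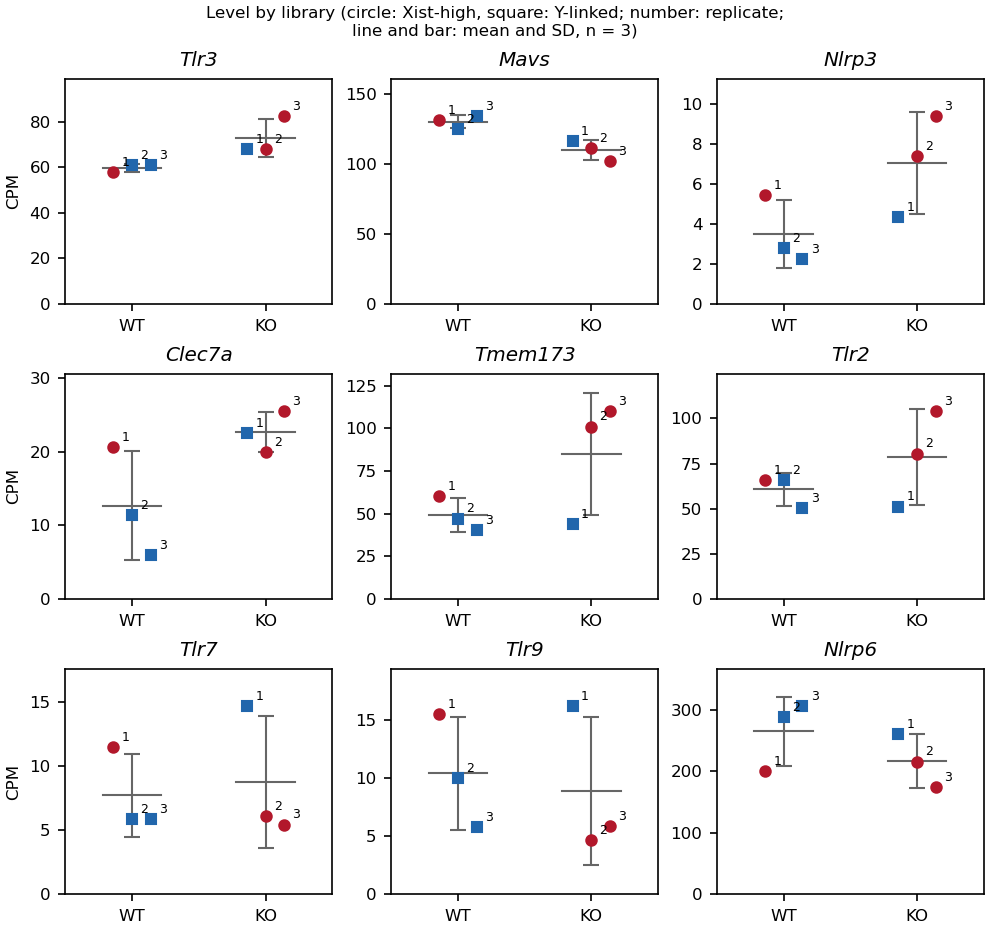
CPM of 9 genes in each colon library (circles for Xist-high, squares for Y-linked libraries, numbered by replicate), with the mean and SD of each group (n = 3). WT and KO do not overlap for Tlr3 and Mavs, KO replicates 2 and 3 stand above KO replicate 1 for Nlrp3, Tmem173 and Tlr2, and replicate 1 is the highest of its group for Tlr7 and Tlr9.

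KO replicates 2 and 3 were the 2 highest libraries for 7 of the 34 genes (20.6%, against 18.7% of all genes), namely Tlr2, Cd14, Irak1, Nod2, Nlrp3, Aim2 and Tmem173. The 2 libraries were also the highest of the 6 in neutrophil markers: the 8 markers summed to 137 and 147 CPM there, to 70.6 CPM in KO replicate 1 and to 63.8 to 111 CPM in WT. Within that list S100a9 had 23.0 and 26.0 CPM in KO replicates 2 and 3, 1.79 CPM in KO replicate 1 and 13.6, 2.67 and 0.875 CPM in WT, while Ly6g went the other way, at 64.0, 59.6 and 57.8 CPM in WT and 56.2, 54.0 and 51.6 CPM in KO. Ly6g thus made up most of the sum in KO replicate 1 and in WT replicates 2 and 3. For S100a8, S100a9, Csf3r, Cxcr2, Retnlg, Mmp8 and Trem1, every Xist-high library, WT replicate 1 included, was above every Y-linked library. Among all genes 8.29% did the same. The part of neutrophils in the 7 of the 34 genes named above was not tested. Epithelial markers (9 genes) summed to 1610 to 1950 CPM in WT and 1770 to 1910 CPM in KO, and smooth muscle markers (7 genes) to 1530 to 1810 CPM in WT and 1020 to 1720 CPM in KO. The 3 genes listed as liver markers summed to 55.0 to 62.7 CPM in WT and 56.6 to 83.3 CPM in KO. Ttr made up most of this sum in each WT library, and the source of its reads was not tested. Among them Alb, for albumin, had 5.91, 11.9 and 8.25 CPM in WT and 12.1, 49.2 and 34.7 CPM in KO (1.88 ± 0.54, SE, log2), highest in KO replicates 2 and 3. Ttr, for transthyretin, had 46.8 to 52.8 CPM in WT and 34 to 43.7 CPM in KO (-0.31 ± 0.13, SE, log2). The groups overlapped for neither, and edgeR's adjusted p was 0.829 for both. The part of Alb's source in the same 7 of the 34 genes was not tested. In addition, the milk protein gene Csn2 had 1 count in KO replicate 1 and was at 0 in the other libraries.

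KO replicate 1 was the only Y-linked KO library and WT replicate 1 the only Xist-high WT library, so genotype and Xist status overlap in part. Every Xist-high library was above every Y-linked library for 7 of the 34 genes (8.29% of all genes did the same), which were Tlr2, Tlr4, Cd14, Nod2, Nlrp3, Nlrc4 and Tmem173. Every Xist-high library was below every Y-linked library for 5 (7.72% of all genes), which were Tlr1, Ticam1, Irak2, Nod1 and Nlrp6. Within the Xist-high libraries, with WT replicate 1 as the lone WT, 19 of the 34 genes were higher in KO (8700 of all 17195 were). Within the Y-linked libraries, with KO replicate 1 as the lone KO, 21 of the 34 were (8511 of all 17195). KO minus WT had the same sign within both sets for 16 of the 34 genes: 11 were higher in both (17.6% of all genes were) and 5 lower in both (17.5% of all genes were). The 11 were Tlr3, Tlr4, Tlr6, Cd14, Nod2, Nlrp3, Aim2, Pycard, Clec7a, Card9 and Tmem173, and the 5 were Irak4, Traf6, Nlrp6, Gsdmd and Mavs. The other 18 genes had opposite signs (64.8% of all genes did), among them Tlr7 (-0.98 and 1.30), Tlr8 (-1.02 and 1.55), Tlr9 (-1.56 and 1.08) and Tlr5 (-1.14 and 0.33; Xist-high and Y-linked, log2). An interaction of genotype and Xist status, added after the data were seen, passed edgeR's test for none of the 34 genes (0% of all genes), with 9 of the 34 at an unadjusted p under 0.05 (19.4% of all genes). Each set holds a group of 1 library, so these differences have no replicate check of their own.

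**Figure D5:**
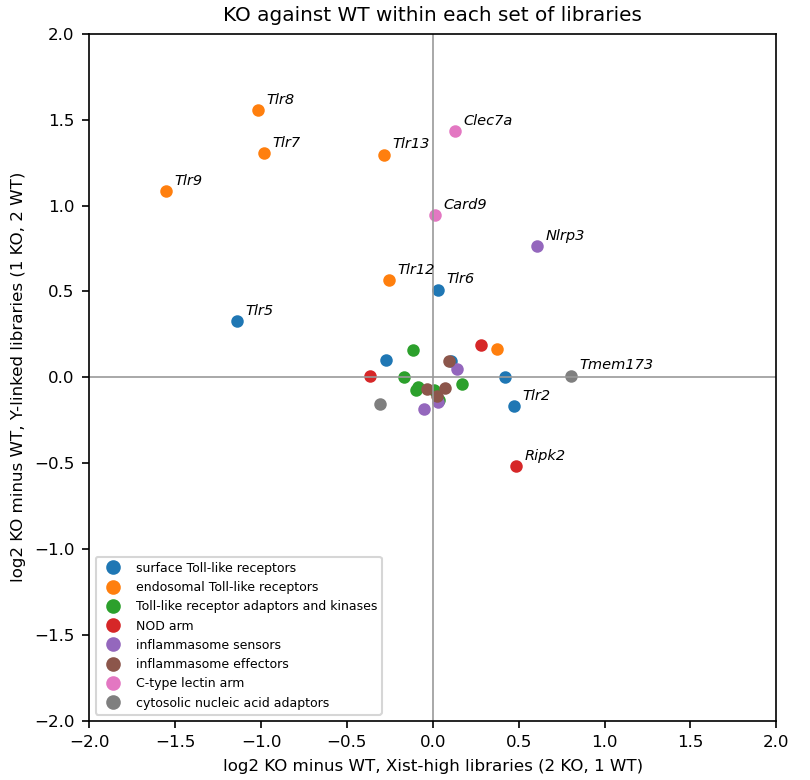
KO minus WT (log2 CPM) of each gene within the Xist-high libraries (x axis, 2 KO and 1 WT) and within the Y-linked libraries (y axis, 1 KO and 2 WT), coloured by role. Endosomal receptors lie at upper left with opposite signs apart from Tlr3, Nlrp3 is positive on both axes, and Tmem173 is at 0.80 and 0.01.

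Without KO replicate 1, edgeR gave 9 of the 34 genes an unadjusted p below 0.05 (20.9% of all genes): 5 were higher (Tlr2, Cd14, Tlr3, Nlrp3 and Tmem173) and 4 were lower (Tlr1, Tlr5, Nod1 and Mavs). None passed after adjustment. The lowest adjusted p there was 0.0839, for Tmem173 at 1.09 ± 0.17 (SE, log2), and Cd14 followed at 0.49 ± 0.08 (adjusted p = 0.0845) and Nod1 at -0.45 ± 0.09 (adjusted p = 0.0929). With that library the same 3 genes stood at 0.78, 0.33 and -0.26. KO replicate 1 was the only Y-linked KO library, so without it every KO library was Xist-high and genotype overlapped more with Xist status. Within the Y-linked libraries, with KO replicate 1 as the lone KO, the same 3 genes differed by 0.01, 0.003 and 0.009 (log2).

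Around these members, 74 other genes of the same pathways were counted and 69 were tested: co-receptors, NF-kB kinases and factors, interferon regulators, further NLR and C-type lectin genes, and cytokine outputs. None passed edgeR's test over all genes (adjusted p of at least 0.829), and 8 reached an unadjusted p below 0.05, of which 5 were higher in KO (2.62% of all genes were) and 3 lower (2.44% of all genes). The median log2 difference was 0.02, with 37 higher and 32 lower. The groups did not overlap for 5 genes that were higher (4.55% of all genes) and 2 that were lower (5.04% of all genes). The 8 tested cytokine outputs had a median of 0.84, with 6 higher and 2 lower. Genes named here after their values were seen are Cxcl2, a neutrophil chemokine, at 2.35 ± 1.35, Il1a and Il1b, both interleukin-1 genes, at 2.06 ± 0.78 and 1.36 ± 0.87, and Clec4d, a myeloid lectin receptor, at 2.18 ± 0.83 (SE, log2). All 4 had KO replicates 2 and 3 as their highest libraries and overlapping groups, with adjusted p = 0.829 in edgeR. Il1b, for example, had 25.2, 7.89 and 4.13 CPM in WT and 7.53, 46.8 and 41.3 CPM in KO. The other genes of the 4 rested on few reads in several libraries. Cxcl2 had 51, 7 and 4 counts in WT and 4, 181 and 104 in KO. Il1a had 24, 8 and 5 counts in WT and 15, 78 and 51 in KO. Clec4d had 28, 10 and 6 counts in WT and 15, 74 and 96 in KO. With Xist status as a covariate all 4 differences were smaller. Cxcl2 then stood at 0.979 ± 0.622, Il1a at 1.416 ± 0.364, Il1b at 0.585 ± 0.301 and Clec4d at 1.392 ± 0.396 (SE, log2). On the higher side, Mb21d1, which encodes the DNA sensor cGAS upstream of STING, had a mean of 11.9 CPM (SD 1.89) for WT against 18.0 CPM (SD 2.37) for KO, or 0.60 ± 0.19 (SE, log2). Ikbkb, the kinase that releases NF-kB, and Clec4n, the fungal mannan receptor dectin-2, differed by 0.17 ± 0.05 and 0.44 ± 0.14 (SE, log2). Mb21d1, Ikbkb and Clec4n are among the 5 without overlap. On the lower side, Slc15a4, a transporter of the endolysosome needed for TLR7 and TLR9 signalling, differed by -0.28 ± 0.09, Nlrx1, a mitochondrial NLR, by -0.24 ± 0.09 and Tnfaip3, the A20 brake on NF-kB, by -0.51 ± 0.19 (SE, log2). Slc15a4 and Nlrx1 are the 2 without overlap. WT and KO overlapped for Tnfaip3, at 150, 236 and 180 CPM in WT and 151, 132 and 115 CPM in KO. Among these neighbours, genes on the opposite strand overlap Mb21d1, Nlrx1 and Slc15a4.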

How the data were processed

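Gene expression was measured by RNA sequencing of total colon and of sorted CD8+ T cells in 12 mouse libraries, grouped by their titles. Values in the deposited tables are raw read counts by Ensembl gene ID. For their processing the authors name the tools DESeq2, HTSeq, RSEM, STAR and TopHat2 and the builds GRCm38 and mm10 (submitters' processing notes), with neither roles nor versions. Duplicate removal and strand setting were not stated. The 34 genes, the lists and the alternatives were chosen with earlier results of these data known.

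The 6 colon libraries were fitted alone. Genes kept by filterByExpr (17195 of 30263) were given TMM scaling, then edgeR's quasi-likelihood test with robust estimation (edgeR 4.0.16, R 4.3.3), with Benjamini-Hochberg adjustment over all of them and a threshold of 0.05. The test was checked on simulated data with independent replicates, which do not copy the uneven spread of the sexes in these libraries. Differences are fitted log2 ratios of KO to WT, and their SE is the size of the difference over the square root of F. Differences within the Xist-high or Y-linked libraries are of mean log2(CPM + 0.1), with no test. Every member is named, with the 3 higher and 3 lower other pathway genes of smallest p, S1pr4, Xist and Ddx3y. Single marker genes named beside the sum of their list, and Cdx2 and Csn2, were chosen after their values were seen. Exon lengths and coordinates are from GENCODE vM21 (GRCm38), which held 99.8% of the IDs. Between replicates of a group, chi-square per degree of freedom was 5.6 or more, above sampling noise. Precision is limited by counting error and by 3 libraries a group, and reads carry no molecular identifiers. Alternatives used DESeq2 1.42.0, limma-voom with quality weights for the libraries (limma 3.58.1), other scalings and filters and a replicate block. Others used Xist status as a covariate or left out each library in turn. A colon marker, and the marker sum that used it, are not reported here.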

Additional observations from a re-analysis of the deposited data

How the results depend on the processing

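Of the counts and medians, DESeq2 changed 1: it called 18 of all genes where edgeR called 0, and 0 of the 34 genes. No other setting called any gene in edgeR or limma-voom. The median log2 difference of the 34 genes was 0.06 and ran from 0.03 to 0.09 over the settings that kept every library, and from -0.007 (without KO replicate 1) to 0.131 (without WT replicate 1) with 1 library left out. For the other pathway genes the median of 0.02 ran from -0.006 to 0.047 over the former and from -0.006 to 0.09 over the latter. With a mean of at least 50 counts, 30 of the 34 genes were tested. The replicate block called 0 genes, as did the fit without it, and gave a median of 0.051 for the 34 genes. The number of all genes at an unadjusted p under 0.05 was 870, with 3673 when KO replicate 1 was left out, 307 without WT replicate 3, 430 and 445 without KO replicates 2 and 3, 528 without WT replicate 2, and 4552 in limma-voom. Deviations of same-numbered libraries correlated at -0.06, 0.20 and -0.24. Same-numbered libraries had opposite Xist status in every pair, so these values cannot decide whether the numbers pair the samples.

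Over the named genes and these settings, 541 of 570 values kept their direction and side of the threshold, 28 changed sign and 1 (S1pr4 with DESeq2, 1.78, adjusted p = 0.0059) passed the threshold. None of the values that changed sign passed it. With limma-voom, the sign changed for Tlr7 (-0.034), Tlr8 (-0.071), Tlr12 (-0.004), Pycard (-0.003) and Ripk2 (0.11). Ripk2 was 0.016 with total counts as the only scaling, and Nlrc4 was -0.054 with Xist status as a covariate. With 1 library left out, values ran from -0.43 to 0.58 for Tlr7, -0.34 to 0.77 for Tlr8, -0.99 to 0.19 for Tlr9, -0.20 to 0.31 for Tlr12, -0.115 to 0.037 for Traf6, -0.17 to 0.13 for Ripk2, -0.041 to 0.183 for Nlrc4, -0.046 to 0.11 for Pycard, -0.13 to 0.002 for Casp1, -0.058 to 0.112 for Casp4 and -0.064 to 0.617 for Card9. The cause was not tested.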
